A study of Danio rerio with 6 samples.

Results

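Cytochrome P450 enzymes of families 1 to 4 were followed in headless zebrafish embryos that lack a functional *zrsr2* and in wild-type (WT) embryos. The members are all genes whose symbol in the deposited transcript tables starts with *cyp*, a family number from 1 to 4 and a letter. They are 53 of the 31886 genes in the tables: 5 in family 1, 40 in family 2, 4 in family 3 and 4 in family 4. Of these, 49 had a mean of at least 0.1 FPKM over the 6 pools and entered the comparison, namely 4, 37, 4 and 4 of the respective families. FPKM is the number of fragments per kilobase of transcript, normalized to the number of mapped fragments.

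Each pool held the bodies of 10 embryos of strain Tab5 at 3 days post fertilization (dpf), whose heads had been cut off to genotype them. Crosses between WT siblings gave the 3 WT pools, from clutches 12, 13 and 15. The 3 mutant pools came from clutches 3, 4 and 7 of crosses between heterozygotes, and their genotype is labelled zrsr2hg129/h129, which the study writes as zrsr2hg129/hg129, a CRISPR/Cas9 frameshift allele carried as 1 line. The titles of the mutant pools name the clutch as het, after its parents. The genotypes share no clutch and no type of cross, and the RNA integrity numbers of the WT pools all lie above those of the mutant pools. These differences and the genotype cannot be told apart. Below, values of WT pools are listed in the order of clutches 12, 13 and 15, and values of mutant pools in the order of clutches 3, 4 and 7.

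P450 enzymes are heme proteins that insert an oxygen atom into their substrate, with electrons that most of them receive in the endoplasmic reticulum from NADPH-cytochrome P450 reductase and cytochrome b5. Families 1 to 3 are best known for the oxidation of drugs, pollutants and steroids, and family 4 for the hydroxylation of fatty acids. Liver and intestine are their main sites in vertebrates, and in fish many family 2 genes lie side by side as tandem copies that arose by duplication.

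Coverage summed over all transcripts came to 7.505 to 9.255 gigabases for WT and 8.855 to 9.168 gigabases for mutants. *zrsr2* itself was at 1.38, 1.5 and 1.39 FPKM in WT pools and 0.513, 0.793 and 1.06 FPKM in mutant pools. These levels did not overlap, but the log2 fold change of -0.62 (SE 0.23) did not pass the test (limma, adjusted p = 0.176). Photoreceptor genes, as a check for heads, summed to 0.132 to 0.214 FPKM in WT and 0.268 to 0.489 FPKM in mutant pools, with rhodopsin (*rho*) at 0 in 5 of 6 pools, whereas skeletal muscle genes summed to 16494 to 23367 FPKM. Across all 20018 genes tested, 380 were called lower and 180 higher in mutants, where a call needs an adjusted p below 0.05 and a log2 fold change of at least 1 in size. Without scaling between pools the split was 774 lower and 132 higher, which moved the median of log2 fold changes over all genes from 0.01 to -0.19. All fold changes below are mutant minus WT on the scale of log2(scaled FPKM + 0.1), relative to a median of all genes near 0.

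Of the P450 genes, 6 passed the test, all of them lower in the mutant pools, while the sum over all genes depended on the scaling. Summed over the 53 genes, the level was 193, 225 and 173 FPKM in WT pools and 105, 124 and 152 FPKM in mutant pools. The mutant mean was 64.6% of the WT mean, 127 ± 23.7 against 197 ± 26.4 FPKM (SD, n = 3 each), and these deposited sums did not overlap between genotypes. After scaling between pools, as used for the fold changes, the sums were 181, 206 and 154 for WT and 122, 127 and 158 for mutants, so that mutant clutch 7 lay above WT clutch 15 and the mutant mean was 75.3% of the WT mean. Sums, levels and percentages of the WT mean below are of FPKM as deposited unless they are called scaled. Of the 49 genes tested, 6 were called lower (*cyp2x7*, *cyp2x9*, *cyp2x12*, *cyp2k19*, *cyp4t8* and *cyp4v7*), against 1.9% called lower among all genes. None was called higher by limma or by limma-voom, against 0.899% among all genes. By limma-voom, 5 were called lower, all but *cyp2x12*, against 275 of all 20018 genes. At an unadjusted p below 0.05 (limma), 18 were lower and 3 higher, against 2460 and 2149 of all 20018 genes. A log2 fold change below 0 was found for 36 of the 49, against 48.8% of all genes, and the median was -0.34 against 0.01 over all genes.

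The plot of scaled levels by pool shows how the pools of each gene lie. After scaling, 15 of the 49 genes (30.6%) had all mutant pools below all WT pools, against 15.8% of all genes. As deposited, without scaling, this held for 24 of the 49, against 26.8% of all genes. All mutant pools lay above all WT pools for 3 genes (*cyp2aa3*, *cyp2aa11* and *cyp2p10*), against 14.9% of all genes. The count of calls depended on single pools. It stayed at 6 without mutant clutch 3 and fell to 3 without mutant clutch 4 or 7, to 2 without WT clutch 15 and to 1 without WT clutch 12 or 13. Over all genes, the 380 called lower became 321 without mutant clutch 3, and 250 and 154 without mutant clutches 4 and 7. They became 168 without WT clutch 15, and 63 and 70 without WT clutches 12 and 13. *cyp2x7* was the gene called in every one of these 6 fits.

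**Figure D1:**
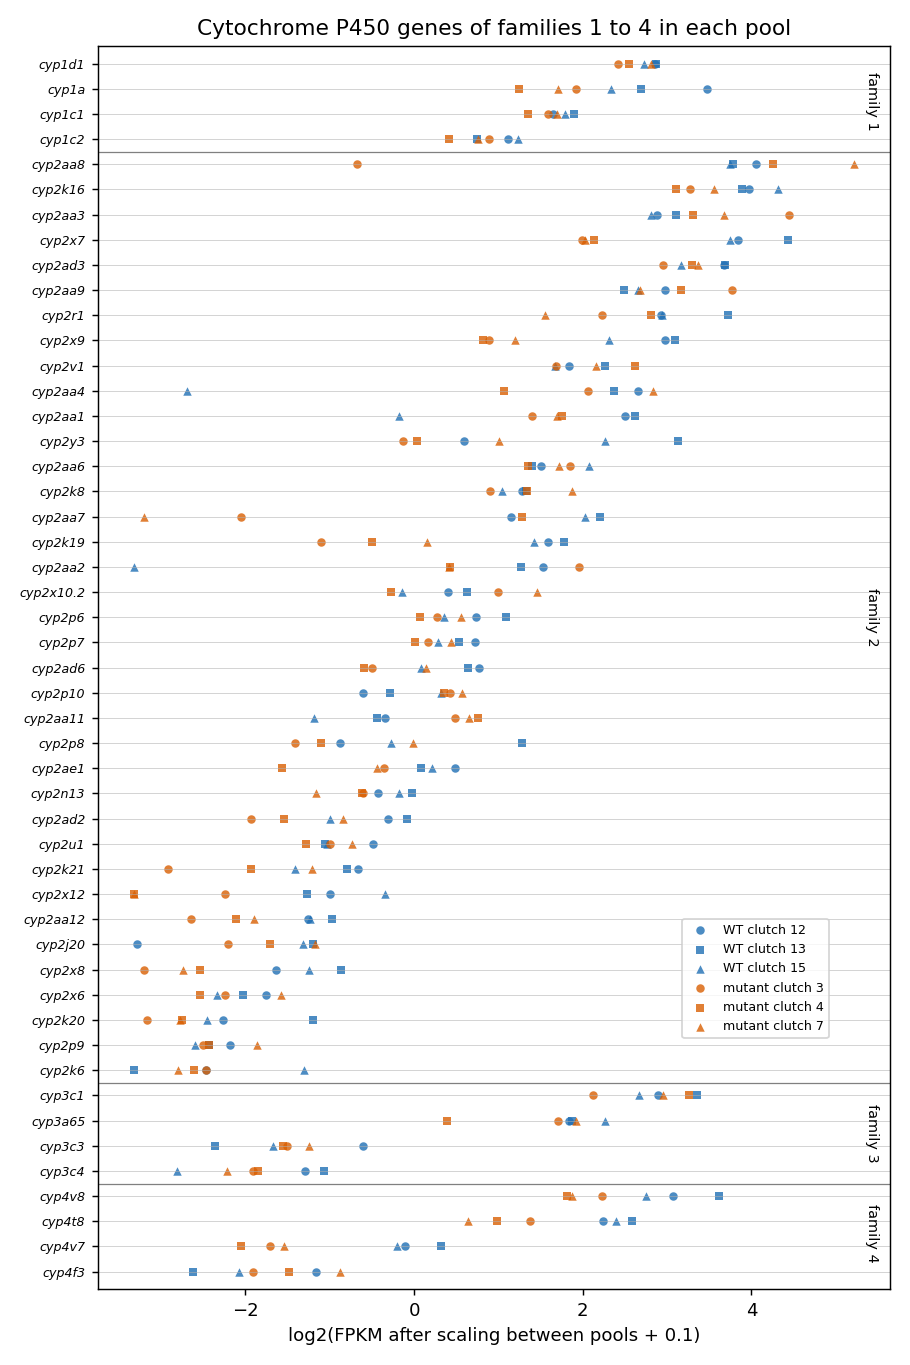
Levels of the 49 P450 genes tested, on the scale of log2(scaled FPKM + 0.1), with 1 point per pool (blue, WT clutches 12, 13 and 15; orange, mutant clutches 3, 4 and 7) and genes ordered by mean FPKM within each family. All orange points lie left of all blue points for 15 genes, *cyp2x7*, *cyp2k19* and *cyp4v7* among them, while copies such as *cyp2aa4* and *cyp2aa8* have single pools far from the rest of their genotype.

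**Figure D2:**
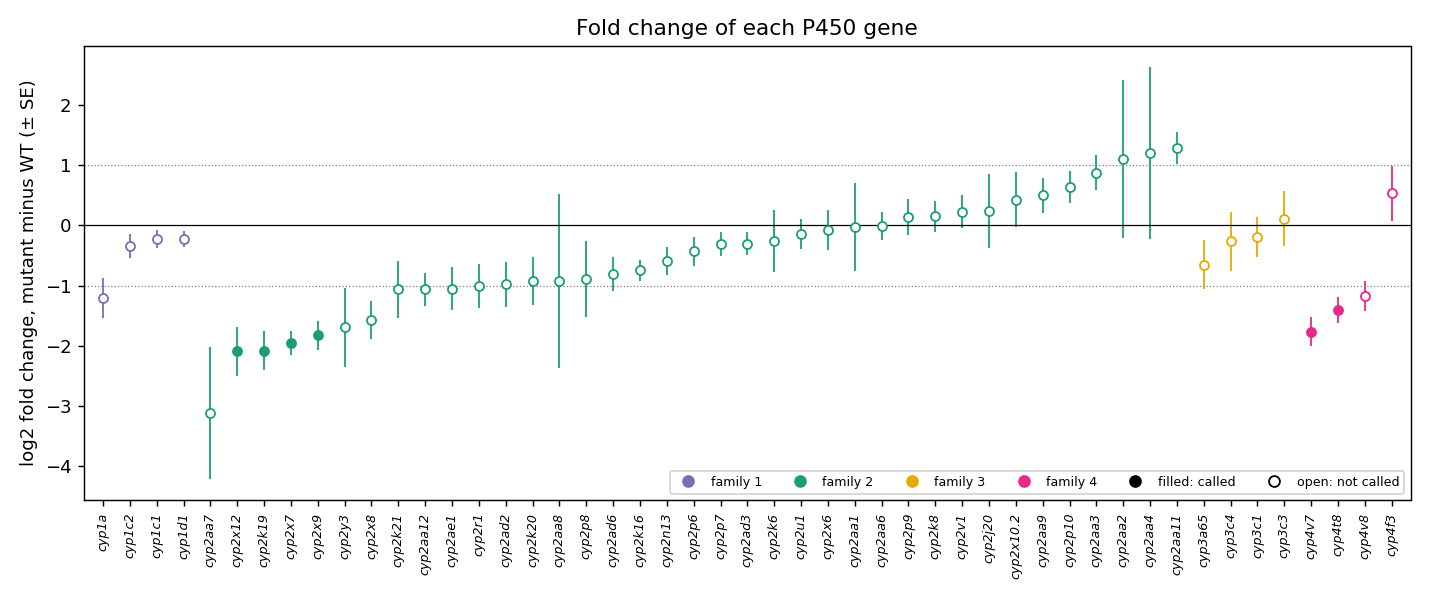
Log2 fold change of each P450 gene, mutant minus WT, with its standard error from limma (3 pools per genotype). Filled points are the 6 genes called lower, from -2.09 (*cyp2x12*) to -1.41 (*cyp4t8*), dotted lines mark a change of 1 in size, and the long error bars belong to copies of the *cyp2aa* locus.

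Family 1 includes genes that ligands of the aryl hydrocarbon receptor switch on, *cyp1a* among them. Its sum was 24.9, 20.6 and 19.2 FPKM in WT pools and 11.7, 11.5 and 14.3 FPKM in mutant pools, a mutant mean of 58.0% of the WT mean (67.9% scaled, with no overlap in either case). None of the 4 genes tested was called by limma or limma-voom, and all 4 had a negative log2 fold change. Only 1 (*cyp1a*, lower) had an unadjusted p below 0.05, against 2460 lower and 2149 higher of all 20018 genes. *cyp1a*, the family member most used as a read-out of pollutant exposure, is on chromosome 18, from 5588068 to 5598958 of GRCz11 (minus strand). It had 11.8, 6.95 and 5.51 FPKM in WT pools and 3.17, 2.22 and 3.04 FPKM in mutant pools. Every mutant pool was below every WT pool, and WT clutch 12 stood above the other two WT pools. The log2 fold change was -1.21 (SE 0.33), which did not pass the test (limma, adjusted p = 0.0952), and it ranged from -1.46 to -0.89 when single pools were left out. *cyp1a* was called without scaling between pools. It was also called in the fit with unnamed transcripts added to named genes (limma, adjusted p = 0.0469), where 2.86% of all genes were called lower, although its own locus holds 0 unnamed transcripts and its FPKM values are the same in that fit.

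The other family 1 genes had smaller fold changes. *cyp1d1*, whose human counterpart is a pseudogene, had 7.59, 7.90 and 7.30 FPKM in WT pools and 4.52, 5.62 and 6.62 FPKM in mutant pools, with a log2 fold change of -0.23 (SE 0.14). *cyp1c1* had 3.23, 3.95 and 3.74 FPKM in WT and 2.50, 2.39 and 3.02 FPKM in mutant pools, a log2 fold change of -0.23 (SE 0.15). *cyp1c2* had 2.2, 1.72 and 2.51 FPKM in WT and 1.5, 1.21 and 1.52 FPKM in mutant pools, a log2 fold change of -0.34 (SE 0.20). In these 3 genes the deposited levels of the genotypes did not overlap, but the scaled levels did. *cyp1b1*, the fifth gene, had a mean of 0.0965 FPKM, just under the limit for the test. On the other side of that limit, *cyp2k6* and *cyp2p9* were tested with means of 0.1003 and 0.102 FPKM.

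The receptor pathway that includes regulators of *cyp1a* and other targets of the receptor showed no call. Of 10 genes of the aryl hydrocarbon receptor pathway, 8 were tested, 0 were called in either direction by limma or limma-voom, and their median log2 fold change was -0.12. At an unadjusted p below 0.05, 1 was lower (*ahr1a*, log2 fold change -0.93, SE 0.26) and 0 higher, against 2460 and 2149 of all 20018 genes. *ahr2*, the receptor that mediates most dioxin toxicity in zebrafish, had 5.96, 5.75 and 6.23 FPKM in WT pools and 3.42, 5.02 and 5.40 FPKM in mutant pools, with a log2 fold change of -0.17 (SE 0.16) and overlapping scaled levels. *nqo1*, a quinone reductase that the receptor and Nrf2 both induce, had a log2 fold change of 0.13 (SE 0.44), and *aip*, a chaperone partner of the receptor, one of -0.085 (SE 0.15). The receptor repressors *ahrra* and *ahrrb* were below the limit for the test.

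Family 2 summed to 140, 168 and 127 FPKM in WT pools and 79.997, 96.5 and 121 FPKM in mutant pools, with a mutant mean of 68.4% of the WT mean. The scaled sums overlap, at 79.7%. Of its 37 genes tested, 4 were called lower and 0 higher, against 1.9% and 0.899% of all genes, and the median log2 fold change was -0.43. At an unadjusted p below 0.05, 14 were lower and 3 higher, against 2460 and 2149 of all 20018 genes. By sum, the subfamilies lay on both sides of the WT level. The 6 *cyp2x* genes summed to 26.5% of the WT mean in mutants, the 9 *cyp2k* genes to 50.8% and the 10 *cyp2aa* genes to 109%. The scaled values were 30.98%, 59.3% and 127%, and of these the scaled sums of *cyp2aa* overlap between genotypes. Whether these subfamilies differ from each other was not tested.

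Of the 6 *cyp2x* genes, 3 were called lower, against 1.9% of all genes. *cyp2x7* is on chromosome 25, from 17372290 to 17378881 (minus strand), with *cyp2x6* and *cyp2x8* in the same assembled locus and *cyp2x9* next to them. *cyp2x7* had 15.1, 23.5 and 14.9 FPKM in WT pools and 3.32, 4.19 and 3.82 FPKM in mutant pools, 21.2% of the WT mean. The log2 fold change was -1.96 (SE 0.20; limma, adjusted p = 0.0103). *cyp2x9* had 8.29, 9.23 and 5.43 FPKM in WT pools and 1.51, 1.62 and 2.11 FPKM in mutant pools, with a log2 fold change of -1.83 (SE 0.24; limma, adjusted p = 0.0189). In both genes every mutant pool was below every WT pool. The call for *cyp2x9* was kept in 3 of the 6 fits that left out a pool (those without WT clutch 15 and without mutant clutch 3 or 7), with log2 fold changes from -2.07 to -1.68 over the 6.

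Of the rarer *cyp2x* copies, *cyp2x6*, *cyp2x8* and *cyp2x12* were under 1 FPKM in every pool. *cyp2x8* had 0.236, 0.491 and 0.359 FPKM in WT pools and 0.00768, 0.0712 and 0.0482 FPKM in mutant pools, and its log2 fold change of -1.57 (SE 0.32) lay just outside the threshold (limma, adjusted p = 0.0512). The named transcripts of *cyp2x8* make up 9.76% of the FPKM assigned to it when unnamed transcripts are added, and the gene was then called at -2.45 (limma, adjusted p = 0.0011). The added FPKM is that of 1 unnamed transcript, from 17372228 to 17395356, which spans *cyp2x7* as well. That call therefore cannot be credited to *cyp2x8* alone. From its named transcripts, *cyp2x8* was also called without scaling, at -1.69. *cyp2x12*, on chromosome 7, had 0.426, 0.345 and 0.770 FPKM in WT pools, 0.0952 FPKM in mutant clutch 3, and was listed at 0 in mutant clutches 4 and 7. Its log2 fold change of -2.09 (SE 0.41) was called (limma, adjusted p = 0.0494) and kept its call in 1 of the 6 fits without a pool (without mutant clutch 3), with a range from -2.49 to -1.81. The call was lost with limma-voom, robust eBayes, pseudocounts of 1 and 0.01 FPKM, and a filter of any FPKM above 0. Without scaling, with upper-quartile scaling, with unnamed transcripts added and by whole locus, the call was kept. *cyp2x6* was near 0.1 FPKM in both genotypes, with overlapping pools and a log2 fold change of -0.079 (SE 0.34), and its sign turned with limma-voom (0.19) and without single pools (up to 0.13). *cyp2x10.2* had 1.30, 1.59 and 0.898 FPKM in WT pools and 1.62, 0.712 and 2.53 FPKM in mutant pools, which overlap. A sum over the whole locus of *cyp2x6*, *cyp2x7* and *cyp2x8* keeps reads divided among these copies together. It does not cover reads divided with *cyp2x9*, which is a locus of its own. Summed in this way, the level was 20.7, 28.0 and 19.1 FPKM in WT pools and 3.94, 4.71 and 4.55 FPKM in mutant pools. That sum had a log2 fold change of -2.16 (SE 0.16; limma, adjusted p = 0.00195), where 2.28% of all loci were called lower.

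The 9 *cyp2k* genes all lie on chromosome 3. A related trout enzyme, CYP2K1, hydroxylates lauric acid. *cyp2k16*, the most abundant of them, had 16.6, 16.1 and 22.1 FPKM in WT pools and 8.20, 8.33 and 11.2 FPKM in mutant pools. Its groups did not overlap, and its log2 fold change of -0.75 (SE 0.17; limma, adjusted p = 0.0689) was not called. *cyp2k19* had 3.10, 3.64 and 2.88 FPKM in WT pools and 0.314, 0.593 and 0.968 FPKM in mutant pools, 19.5% of the WT mean, and was called (log2 fold change -2.08, SE 0.32; limma, adjusted p = 0.0277), with the call kept in 2 of the 6 fits without a pool (without mutant clutch 3 or 7; range -2.40 to -1.78). The pools of *cyp2k8*, which lies next to *cyp2k16*, overlap, at a mean of 2.43 ± 0.221 FPKM in WT and 2.44 ± 0.952 FPKM in mutant pools (SD, n = 3 each).

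*cyp2k19* shares its locus with *cyp2k17*, *cyp2k18* and *cyp2k21*. *cyp2k21* had 0.565, 0.522 and 0.308 FPKM in WT pools and 0.0277, 0.158 and 0.320 FPKM in mutant pools, which overlap, with a log2 fold change of -1.06 (SE 0.47). *cyp2k17* and *cyp2k18*, with means of 0.0185 and 0.0154 FPKM in their named transcripts, were not tested, nor was *cyp2k22*, which was above 0 only in mutant clutch 7. With unnamed transcripts added, *cyp2k18* had 2.47, 2.81 and 0.979 FPKM in WT pools and 0.199, 0.389 and 0.459 FPKM in mutant pools. In that fit *cyp2k18* was called lower (-2.04; limma, adjusted p = 0.0246), where 2.86% of all genes were called lower. The whole locus, which also holds 3 unnamed transcripts, had 7.13, 11.2 and 4.77 FPKM in WT pools and 1.12, 1.35 and 1.99 FPKM in mutant pools, a log2 fold change of -2.10 (SE 0.32; limma, adjusted p = 0.0174). The pools of the genotypes did not overlap whether *cyp2k19* was taken alone or with the rest of its locus.

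The *cyp2aa* copies on chromosome 23 varied widely between pools of 1 genotype. A single assembled locus from 42336084 to 42493876 holds 7 of them, with 9 named and 20 unnamed transcripts. *cyp2aa8*, the P450 gene with the highest mean of all, had 17.6, 14.9 and 14.9 FPKM in WT pools and 0.453, 18.6 and 35.8 FPKM in mutant pools. *cyp2aa4* had 6.61, 5.56 and 0.0610 FPKM in WT pools and 3.49, 1.96 and 6.74 FPKM in mutant pools. *cyp2aa2* had 2.98 and 2.53 FPKM in WT clutches 12 and 13, was listed at 0 in WT clutch 15, and had 3.24, 1.22 and 1.18 FPKM in mutant pools. Each of these genes was far lower in 1 pool than in the others of its genotype, mutant clutch 3 for *cyp2aa8* and WT clutch 15 for *cyp2aa4* and *cyp2aa2*. *cyp2aa7* had 2.27, 4.93 and 4.45 FPKM in WT pools and 0.120, 2.28 and 0.00830 FPKM in mutant pools, and *cyp2aa1* had 5.95, 6.61 and 0.877 FPKM in WT pools and 2.18, 3.21 and 3.01 FPKM in mutant pools.

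The standard errors of these copies reached 1.44 for *cyp2aa8*, whose log2 fold change was -0.92, or 0.88 without mutant clutch 3. The log2 fold changes of *cyp2aa2* and *cyp2aa4*, 1.10 (SE 1.31) and 1.21 (SE 1.43), became -0.48 and -0.53 without WT clutch 15. *cyp2aa7*, at -3.12 (SE 1.10), was not called, but was called at -4.43 without mutant clutch 4. *cyp2aa1* was at -0.034 (SE 0.73). Smaller standard errors were found for *cyp2aa3*, with 7.74, 9.33 and 7.74 FPKM in WT and 18.6, 9.60 and 12.2 FPKM in mutant pools (log2 fold change 0.88, SE 0.29; limma, adjusted p = 0.143), and *cyp2aa9*, with 8.27, 6.04 and 6.95 FPKM in WT and 11.6, 8.73 and 6.06 FPKM in mutant pools (0.50, SE 0.29).

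Summed over all its transcripts, the *cyp2aa* locus varied less between pools than these copies. It had 61.1, 60.8 and 67.8 FPKM in WT pools and 94.4, 76.9 and 103 FPKM in mutant pools. Every mutant pool was above every WT pool. The log2 fold change was 0.68 (SE 0.16; limma, adjusted p = 0.0520), which was not called. Unnamed transcripts made up 15.8 to 48.4% of this sum for WT and 37.2 to 57.9% for mutants, and the named copies alone had a sum of 45.4 ± 9.09 FPKM in WT and 50.1 ± 13.2 FPKM in mutants (SD, n = 3 each). *cyp2aa11*, which lies within the same stretch as a locus of its own, had 0.730, 0.698 and 0.378 FPKM in WT pools and 1.12, 1.55 and 1.41 FPKM in mutant pools. Its log2 fold change of 1.29 (SE 0.26) lay just outside the threshold (limma, adjusted p = 0.0521), and it was called higher when unnamed transcripts were added (adjusted p = 0.0232) or whole loci were compared (adjusted p = 0.0409, with limma in each case), where 1.74% of all genes and 1.79% of all loci were called higher. Its locus holds 0 unnamed transcripts, so that its FPKM values are the same in these fits. In the opposite direction, *cyp2aa12*, which shares a separate locus with *cyp2aa6*, had 0.339, 0.448 and 0.362 FPKM in WT pools. Its levels in mutant pools were 0.0514, 0.129 and 0.161 FPKM, with no overlap (log2 fold change -1.06, SE 0.27; limma, adjusted p = 0.0853). It was called lower when unnamed transcripts were added (-1.08; limma, adjusted p = 0.0483), where 2.86% of all genes were called lower, with its own FPKM values unchanged.

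**Figure D3:**
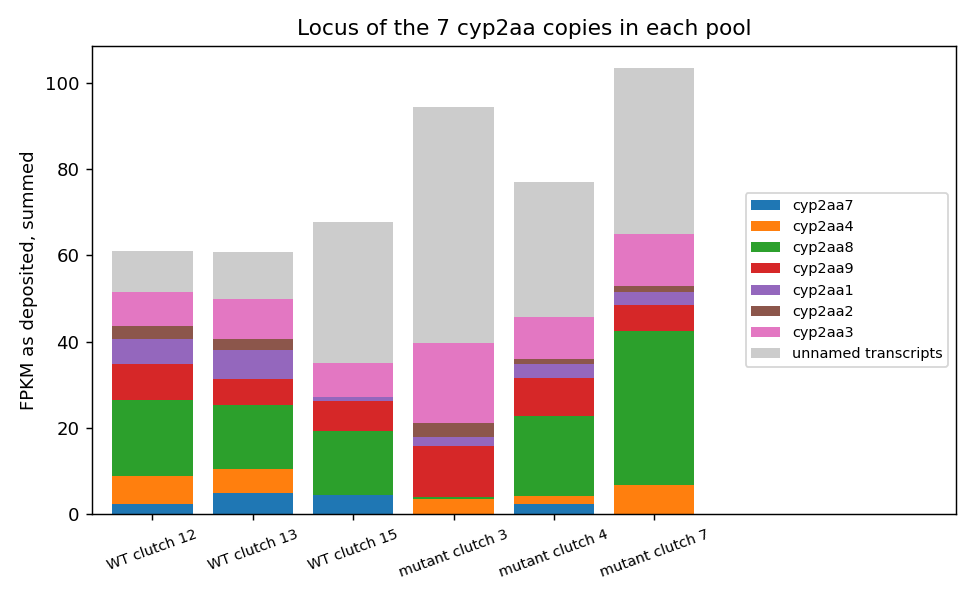
FPKM as deposited in the *cyp2aa* locus of chromosome 23, stacked for its 7 named copies and its unnamed transcripts (grey) in each of the 6 pools. The totals are 60.8 to 67.8 in WT and 76.9 to 103 in mutant pools, while single copies such as *cyp2aa8* (green) range from 0.453 to 35.8.

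Among all P450 genes, 19 share an assembled locus with another member and 34 do not, in 41 loci of which 5 hold several members. The standard error of the log2 fold change had a median of 0.34 over the 17 tested genes that share a locus and 0.28 over the 32 tested genes that do not, against 0.23 over all genes. The 4 called genes with no other P450 member in their locus (*cyp2x9*, *cyp2x12*, *cyp4t8* and *cyp4v7*) do not depend on a division of reads among P450 copies within a locus. *cyp2x7* and *cyp2k19* do. The locus of *cyp4v7* holds 7 named transcripts, of which only 2 carry its symbol. Summed over that whole locus, the log2 fold change was -1.56 (SE 0.24; limma, adjusted p = 0.0175), which was called, against 2.28% of all loci called lower. The symbols *cyp2k6* and *cyp3c3* each cover a pair of loci whose values were summed. Within a single locus of chromosome 7, *cyp2x10.2* covers transcripts from 51950614 to 51953850 and others from 52093291 to 52096498. Their values were summed as well, and the symbol was counted among the genes that share no locus with another member.

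The remaining abundant family 2 genes were not called. *cyp2r1*, the vitamin D 25-hydroxylase in mammals, had 8.0, 14.3 and 8.48 FPKM in WT pools and 3.93, 6.76 and 2.73 FPKM in mutant pools, with no overlap and a log2 fold change of -1.0 (SE 0.37; limma, adjusted p = 0.172). *cyp2ad3* had 13.5, 13.9 and 9.88 FPKM in WT and 6.59, 9.49 and 9.79 FPKM in mutant pools, a log2 fold change of -0.30 (SE 0.19). It belongs to a cluster of 11 genes on chromosome 20, counterparts of the human arachidonic acid epoxygenase CYP2J2. None of them was called, against 1.9% called lower and 0.899% higher among all genes. After scaling, *cyp2p10* was the only gene of the cluster with all mutant pools higher, against 14.9% of all genes (0.595, 0.789 and 1.28 FPKM in WT, 1.07, 1.16 and 1.32 FPKM in mutants). *cyp2n13* was the only gene with all mutant pools lower, against 15.8% (0.689, 0.970 and 0.873 FPKM in WT, 0.480, 0.539 and 0.332 FPKM in mutants). At an unadjusted p below 0.05 (limma), *cyp2n13*, *cyp2ad2* and *cyp2ad6* were lower and *cyp2p10* higher, against 2460 and 2149 of all 20018 genes. By its full span, *cyp2v1* overlaps *cyp2ad2*, *cyp2ad3* and *cyp2ad6* on the opposite strand. The transcript with most of its FPKM in every pool, from 25552057 to 25558418, overlaps none of them. The library kit keeps the strand, but whether it was used in counting is not given in the sources used here.

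The value of *cyp2y3* depended on which transcripts were counted. Its named transcripts had 1.5, 9.48 and 5.26 FPKM in WT pools and 0.697, 0.909 and 1.83 FPKM in mutant pools, with a log2 fold change of -1.70 (SE 0.66). These transcripts make up 14.3% of the FPKM of the locus. With the unnamed ones added, the locus had 30.9, 36.3 and 24.2 FPKM in WT pools and 13.0, 17.2 and 16.2 FPKM in mutant pools, which do not overlap, and the log2 fold change was -0.76 (limma, adjusted p = 0.0368).

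Family 3 includes the main drug-metabolizing P450 enzymes of vertebrates. Its sum was 12.4, 15.5 and 12.5 FPKM in WT pools and 6.74, 10.9 and 11.3 FPKM in mutant pools, a mutant mean of 71.5% of the WT mean (82.9% scaled, with overlapping sums). Of its 4 genes, 0 were called by limma or limma-voom (median log2 fold change -0.23). An unadjusted p below 0.05 was found for 0 of them, against 2460 lower and 2149 higher of all 20018 genes. *cyp3a65*, expressed in the larval intestine and liver, had 3.69, 3.89 and 5.25 FPKM in WT pools and 2.72, 1.18 and 3.53 FPKM in mutant pools. Its scaled levels overlap, and its log2 fold change was -0.65 (SE 0.41). *cyp3c1* had 7.83, 11.1 and 6.96 FPKM in WT pools and 3.65, 9.27 and 7.36 FPKM in mutant pools, a log2 fold change of -0.19 (SE 0.33), or 0.13 without mutant clutch 3. *cyp3c3* and *cyp3c4* were rare, with 0.104 to 0.595 and 0.0472 to 0.414 FPKM over the 6 pools, and their log2 fold changes of 0.11 (SE 0.45) and -0.27 (SE 0.49) turned sign without WT clutch 13, to -0.30 and 0.060. For *cyp3c3* the sign also turned without scaling (-0.045).

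In family 4, 2 of 4 genes were called lower and 0 higher, against 1.9% and 0.899% of all genes. Its sum was 15.0, 21.1 and 14.1 FPKM in WT pools and 6.41, 5.59 and 5.48 FPKM in mutant pools, a mutant mean of 34.8% of the WT mean (41.0% scaled, with no overlap in either case). Differences between families were not tested. *cyp4t8*, on chromosome 16, had 4.93, 6.46 and 5.76 FPKM in WT pools and 2.13, 1.85 and 1.40 FPKM in mutant pools, a log2 fold change of -1.41 (SE 0.21; limma, adjusted p = 0.0264). *cyp4v7* and *cyp4v8* are counterparts of human CYP4V2, a fatty acid hydroxylase whose loss causes a retinal dystrophy. *cyp4v7* had 0.880, 1.26 and 0.859 FPKM in WT pools and 0.178, 0.139 and 0.233 FPKM in mutant pools, a log2 fold change of -1.77 (SE 0.24; limma, adjusted p = 0.0208). *cyp4v8*, the most abundant gene of the family, had 8.82, 13.3 and 7.37 FPKM in WT pools and 3.95, 3.35 and 3.42 FPKM in mutant pools. Its groups did not overlap and its log2 fold change was -1.17 (SE 0.25), just outside the threshold (limma, adjusted p = 0.0563), but it was called in the comparison of whole loci (-1.24, adjusted p = 0.0333), in which its FPKM values are the same, since its locus holds 0 unnamed transcripts. *cyp4v8* was also called without scaling, with unnamed transcripts added and at a mean of at least 1 FPKM. These fits called 774, 604 and 305 of all genes lower. The calls of *cyp4t8* and *cyp4v7* were kept in 1 (without mutant clutch 3) and 2 (without mutant clutch 3 or 4) of the 6 fits without a pool, with ranges from -1.59 to -1.23 and from -1.88 to -1.61. *cyp4f3*, named after the human leukotriene B4 hydroxylase, had 0.0686 to 0.369 FPKM in WT and 0.143 to 0.425 FPKM in mutant pools, which overlap (log2 fold change 0.53, SE 0.45).

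Since *zrsr2* encodes a splicing factor, the share of each transcript in its gene was also compared, a comparison added after the values had been seen. Of the members, 10 have several named transcripts with a mean of at least 0.1 FPKM, and shares are of the sum of these transcripts. In 3 of the 10 genes the share of the most abundant transcript did not overlap between genotypes, against 17.2% of all such genes. In *cyp2ad3* both transcripts have the same ends (chromosome 20, 25548425 to 25551676), and the form with 8 exons is 174 nucleotides longer than the form with 9 exons (2049 against 1875 nucleotides). The form with 8 exons made up 12.8, 13.9 and 18.2% of the FPKM of *cyp2ad3* in WT pools and 27.8, 61.1 and 44.3% in mutant pools. The means were 15.0 ± 2.86% and 44.4 ± 16.7% (SD, n = 3 each). A two-sided exact permutation test gave p = 0.1, which is the lowest value that 3 pools against 3 can reach.

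In *cyp2aa11* the form with 9 exons took 51.7, 38.8 and 23.04% of the FPKM in WT pools and 90.03, 92.7 and 90.1% in mutant pools (p = 0.1 by the same exact permutation test). The form with 7 exons had 0.353, 0.428 and 0.291 FPKM in WT and 0.111, 0.113 and 0.139 FPKM in mutant pools. In *cyp2y3* a minor form, 1.87 to 22.8% of the named FPKM in WT pools, was listed at 0 in all mutant pools. The named transcripts make up only 14.3% of the FPKM of the *cyp2y3* locus, so these shares leave out most of it. The form of *cyp3c1* with 13 exons took 19.5, 4.71 and 65.5% in WT pools and 99.0, 62.1 and 99.7% in mutant pools. WT clutch 15 was above mutant clutch 4, so that the groups overlap (two-sided exact permutation test, p = 0.2).

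**Figure D4:**
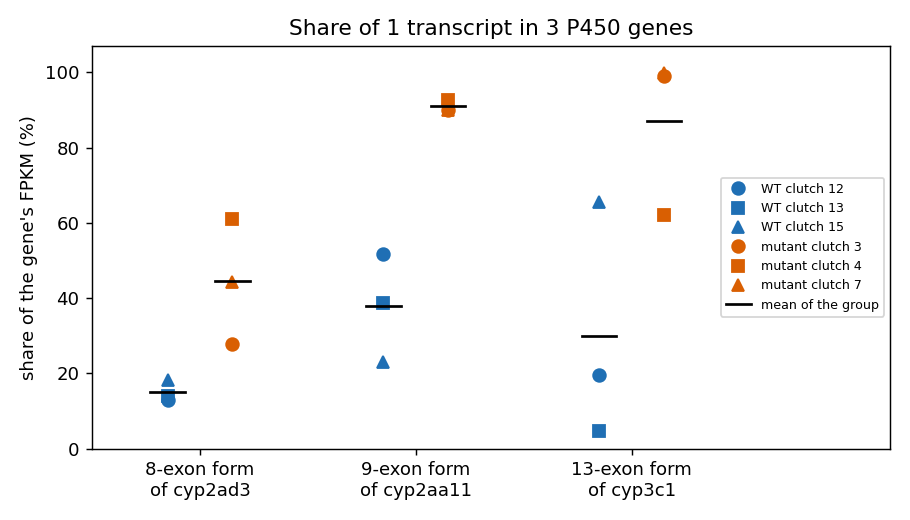
Share of 1 transcript in the FPKM of its gene (percent) in each pool for *cyp2ad3*, *cyp2aa11* and *cyp3c1*, with 1 point per pool (blue, WT; orange, mutant) and a line at the mean of each genotype. The mutant pools lie above the WT pools for *cyp2ad3* (27.8 to 61.1% against 12.8 to 18.2%) and *cyp2aa11*, and overlap with them for *cyp3c1*.

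P450 enzymes receive their electrons from redox partners. Of 10 genes for such partners tested, 1 was called lower and 0 higher, against 1.9% and 0.899% of all genes, with a median log2 fold change of -0.48. *cyb5r2*, a cytochrome b5 reductase, had 11.3, 13.0 and 10.8 FPKM in WT pools and 3.82, 5.14 and 4.19 FPKM in mutant pools (log2 fold change -1.18, SE 0.14; limma, adjusted p = 0.0145). Its call was kept in 3 of the 6 fits without a pool. *porb*, a copy of the P450 reductase gene, had 15.99, 17.3 and 16.7 FPKM in WT pools and 6.70, 8.03 and 9.62 FPKM in mutant pools. Its log2 fold change of -0.82 (SE 0.13; limma, adjusted p = 0.0306) passed the p threshold but not the size threshold. *cyb5a*, a cytochrome b5 gene, had 6.46, 10.4 and 19.5 FPKM in WT pools and 1.65, 3.13 and 2.37 FPKM in mutant pools. Its pools did not overlap, and its log2 fold change of -1.97 (SE 0.39; limma, adjusted p = 0.0510) lay just outside the threshold. The other reductase copy, *pora*, had overlapping pools and a log2 fold change of -0.24 (SE 0.24). *pgrmc1*, a heme protein that binds P450 enzymes, was at -0.94 (SE 0.24; limma, adjusted p = 0.0818) with no overlap between pools. After scaling, 5 of the 10 genes had all mutant pools below all WT pools, against 15.8% of all genes. The reverse held for 2 of them, *pgrmc2* (0.38, SE 0.14) and *cyb5r4* (0.19, SE 0.13), against 14.9% of all genes.

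Of 18 genes for nuclear receptors and related factors that control P450 genes, 1 was called lower and 0 higher, against 1.9% and 0.899% of all genes, with a median log2 fold change of -0.19. *hnf4a*, a master regulator of hepatocyte and enterocyte genes, had 4.79, 6.15 and 3.99 FPKM in WT pools and 1.995, 2.05 and 2.0 FPKM in mutant pools (log2 fold change -1.02, SE 0.19; limma, adjusted p = 0.0426), a call that no fit without a pool kept. *cebpa* and *cebpb*, the most abundant of the list, were at -0.54 (SE 0.16) and 0.73 (SE 0.24), and neither was called. The pregnane X receptor gene *nr1i2*, which controls family 3 in vertebrates, ranged from 0.291 to 2.63 FPKM within WT pools alone.

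Of the markers of intestine and liver, organs that express P450 genes, 3 of 10 and 4 of 15 tested were called lower. All 10 enterocyte markers had every mutant pool below every WT pool after scaling, against 15.8% of all genes, none was listed at 0, and the 3 called compare with 1.9% of all genes. Their summed level was 506 to 893 FPKM in WT and 128 to 229 FPKM in mutant pools, a mutant mean of 28.2% of the WT mean, with a median log2 fold change of -1.81. Of the hepatocyte markers, 15 were tested, 9 had all mutant pools below all WT pools and 4 were called lower, against the same 15.8% and 1.9%, while the pools of the other 6 overlap. Their sum was 2659 to 3166 FPKM in WT and 1127 to 1490 FPKM in mutant pools, 43.3% of the WT mean, with a median of -1.0, and the chromosome 7 copy of *hp* was at or near 0 in all 6 pools. *fabp10a*, the standard hepatocyte marker, was at 171 to 345 FPKM in WT and 17.1 to 32.6 FPKM in mutant pools. *fabp2*, its counterpart in the intestine, was at 192 to 279 FPKM in WT and 36.1 to 68.0 FPKM in mutant pools.

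The median log2 fold change was 0.15 for 6 endothelial markers (-0.076 without scaling) and 0.39 for 6 pronephric markers, of which limma and limma-voom called 0, and 1 of each list was higher and 0 lower at an unadjusted p below 0.05. It was 0.52 for 5 skeletal muscle markers and 0.83 for the 2 photoreceptor genes tested, all 7 of them above 0. Of these, limma and limma-voom called 0, while 2 of each list were higher at an unadjusted p below 0.05. At that unadjusted p, 2149 of all 20018 genes were higher and 2460 lower. After scaling, 3 of the muscle markers had all mutant pools above all WT pools, against 14.9% of all genes. The part of liver and intestine in the P450 values was not tested, and in bulk RNA of whole bodies fewer cells of a type and less RNA per cell cannot be told apart.

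**Figure D5:**
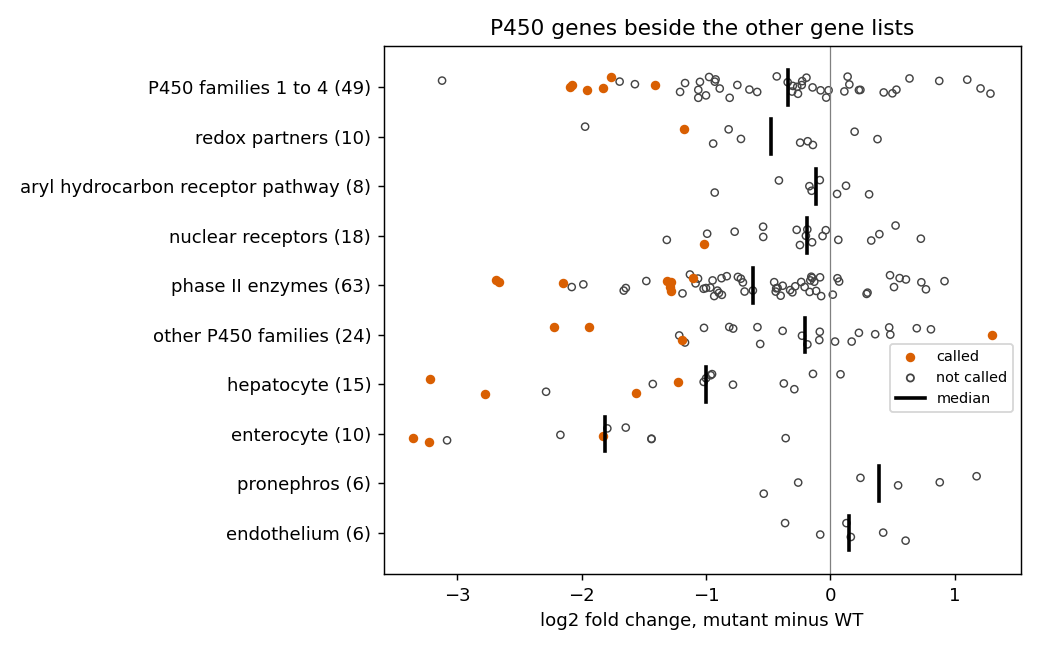
Log2 fold change, mutant minus WT, of each tested gene in the P450 families 1 to 4 and in 9 other gene lists, with the number of genes in brackets, called genes in orange and a black line at the median. The medians are -0.34 for the P450 genes, -1.81 for enterocyte markers, -1.0 for hepatocyte markers, 0.39 for pronephric and 0.15 for endothelial markers (-0.076 without scaling).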

How the data were processed

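RNA-Seq tables of 6 pools were used, 1 table per pool. Per the study's methods and the labels, filtered reads were mapped by the authors with HISAT2 (version 2.2.1.0, genome GRCz11), sorted with sambamba and assembled into transcripts with StringTie 2.0.3 and the Ensembl annotation. StringTie made the deposited FPKM values, which are relative to transcript length and mapped fragments. The deposited coverage is the mean read depth of a transcript, unscaled. No counting error is given, since the files hold no read numbers; 1 FPKM corresponded to a coverage of 9.10 to 11.2. StringTie divides reads among near-identical copies, so values of copies in 1 locus are uncertain.

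FPKM was summed over the transcripts that carry a symbol, per chromosome, divided by median-of-ratios factors (0.859 to 1.12) and transformed as log2(FPKM + 0.1), which understates changes of low genes. Genes with a mean of at least 0.1 FPKM were fitted in R 4.3.3 with limma 3.58.1, using eBayes with its trend option, without covariates and with two-sided p-values adjusted after Benjamini and Hochberg over all 20018 genes. Other steps used Python 3.11.15, pandas 2.3.3, numpy 2.4.6 and matplotlib 3.10.9. The fit was tested on simulated data with large changes in more abundant genes only. That test does not cover rare genes such as *cyp2x12* and *cyp4v7*.

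The members, lists and tests were chosen with earlier results of these data known. The text names all called members, all tested members of families 1, 3 and 4, the 8 family 2 genes with the highest mean, genes sharing a locus with these, and from each list up to 4 called genes and the 2 with the highest mean. Other members and list genes (*cyp2aa11*, *cyp2aa12*, *cyp2n13*, *cyp2y3*, *ahr2*, *pora* and *nr1i2* among them) were chosen after their values had been seen. The labels do not say whether clutches had separate parents, so p-values measure the spread between these pools.

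Alternatives were pseudocounts of 1 and 0.01 FPKM, other filters, no scaling, upper-quartile scaling, unnamed transcripts added to the gene they overlap, whole loci, robust eBayes, limma-voom on fragments estimated from coverage with an assumed read length of 150 bases, and each pool left out in turn. No sequences were used here.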

Additional observations from a re-analysis of the deposited data

How the results depend on the processing

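Of 49 P450 genes, 6 were called lower and 0 higher. With unnamed transcripts added, 50 were tested, of which 11 were called lower and 2 higher (*cyp2aa8* and *cyp2aa11*), against 2.86% and 1.74% of all genes. The named transcripts of *cyp2aa8* make up 43.4% of the FPKM assigned to it in that fit. Many of the unnamed transcripts added to *cyp2aa8* span several *cyp2aa* copies, so its call cannot be credited to this copy alone. From named transcripts its log2 fold change was -0.92. Of the 36 whole loci tested that hold P450 genes, some of them several, 7 were lower and 1 higher, against 2.28% and 1.79% of loci. With limma-voom, robust eBayes, a pseudocount of 0.01 FPKM or a filter of any FPKM above 0, 5 genes were called lower, without *cyp2x12*. These settings called 275, 368, 364 and 303 of all genes lower. A pseudocount of 1 FPKM left 4 genes, without *cyp2x12* and *cyp4v7*. Without scaling, 9 genes were called lower, with *cyp1a*, *cyp2x8* and *cyp4v8* added to the 6. At a mean of at least 1 FPKM, 30 were tested and 5 called lower, *cyp4v8* among them, against 305 of all genes. Without single pools, 1 to 6 were called lower. The P450 median of -0.34 was -0.56 without scaling, -0.53 with unnamed transcripts added, -0.58 by whole locus and -0.58 to -0.30 without single pools, and it was negative in each of the 16 alternatives. The 380 genes called lower overall became 774 without scaling, 206 with a pseudocount of 1 FPKM, 604 with unnamed transcripts, 577 by whole locus and 63 to 321 without single pools. The 180 called higher became 115 with limma-voom, 105 at a mean of at least 1 FPKM, 74 with a pseudocount of 1 FPKM, 368 with unnamed transcripts, 455 by whole locus and 28 to 189 without single pools. The cause of these shifts was not tested.

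Among the 29 named members tested, 18 of the values changed sign, of genes that are not among the 6 called, and 1 of these values was itself called (*cyp2aa8* at 1.22 with unnamed transcripts added). By whole locus, *cyp2aa1*, *cyp2aa7* and *cyp2aa8* shared the value of 0.68. *cyp2x6* was at 0.19 with limma-voom. *cyp3c3* was at -0.045 without scaling and at -0.0034 with a pseudocount of 1 FPKM. Without single pools, *cyp2aa1* ranged from -0.95 to 0.45, *cyp2aa2* from -0.48 to 1.94, *cyp2aa4* from -0.53 to 2.14, *cyp2aa8* from -2.07 to 0.88, *cyp2x6* from -0.35 to 0.13, *cyp3c1* from -0.43 to 0.13, *cyp3c3* from -0.30 to 0.58 and *cyp3c4* from -0.81 to 0.060. Of the other named values, 398 kept their direction and side of the threshold, 27 lost the call and 12 gained one. With 1 pool left out, 1 genotype has 2 pools.

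No paired analysis was possible because WT and mutant pools share no clutch number. Genes near 0.1 FPKM, such as *cyp2x6* and *cyp2k6*, rest on low coverage.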

Other observations

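Enzymes that act after P450 oxidation, which attach groups to its products or open epoxides among them (phase II enzymes), were examined as a list. Of 71 such genes, 63 were tested, 8 were called lower and 0 higher, against 1.9% and 0.899% of all genes, and their median log2 fold change was -0.62. At an unadjusted p below 0.05, 26 were lower and 1 higher, against 2460 and 2149 of all 20018 genes. The 3 lowest fold changes named here belong to glucuronosyltransferase genes. *ugt5a2* had 0.647, 1.09 and 0.751 FPKM in WT pools and 0.0346, 0.0471 and 0.00706 FPKM in mutant pools (log2 fold change -2.69, SE 0.27; limma, adjusted p = 0.0103), and *ugt1b2* fell by 2.67 (SE 0.51; limma, adjusted p = 0.0476). *ugt5d1* fell by 2.15 (SE 0.26; limma, adjusted p = 0.0168). The epoxide hydrolase gene *ephx1*, whose enzyme opens epoxides made by P450 enzymes, fell by 1.31 (SE 0.25; limma, adjusted p = 0.0473). The most abundant genes of the list were glutathione transferases: *gstp1* had 376, 444 and 356 FPKM in WT pools and 168, 248 and 156 FPKM in mutant pools, which do not overlap, but was not called (-0.83, SE 0.20; limma, adjusted p = 0.0733), and *gstt1a* was called at -1.28 (SE 0.16; limma, adjusted p = 0.0174). Of the 6 fits without a pool, 6 kept the call of *ugt5a2*, 4 of *ugt5d1*, 3 of *gstt1a*, 1 of *ugt1b2* and 0 of *ephx1*.

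Of the 28 P450 genes of other families, 24 were tested, 3 were called lower and 1 higher, against 1.9% and 0.899% of all genes, with a median log2 fold change of -0.21. The 3 lower genes act in bile acid synthesis. *cyp7a1*, the gene of its rate-limiting enzyme, had 1.48, 2.70 and 1.18 FPKM in WT pools and 0.189, 0.270 and 0.253 FPKM in mutant pools (-2.22, SE 0.31; limma, adjusted p = 0.0225), and the sterol 12-hydroxylase genes *cyp8b1* and *cyp8b3* were at -1.94 (SE 0.23) and -1.20 (SE 0.19). The gene called higher was *cyp26a1*, whose enzyme breaks down retinoic acid, at 1.30 (SE 0.13; limma, adjusted p = 0.00958). Of the 6 fits without a pool, 4 kept the call of *cyp26a1*, 3 of *cyp8b1*, 1 of *cyp7a1* and 0 of *cyp8b3*. *cyp20a1*, the most abundant gene of the list, had 9.45, 11.7 and 10.3 FPKM in WT pools and 10.6, 11.7 and 9.19 FPKM in mutant pools, which overlap.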
